A study of Mus musculus with 6 samples.

Results

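Cadherins and protocadherins are cell surface proteins by which cells recognise and hold one another. The peaks described here are the ATAC-seq peaks of the distal forelimb bud whose midpoint lay inside, or within 50 kb of the transcription start site of, an autosomal protein-coding gene of these families in the GENCODE annotation of mm10, with *Cdh1* and *Cdh5* left out. There were 88 such genes and 244 such peaks, of 61954 peaks in all. Of the genes, 57 belonged to the clustered protocadherins, which were 14 *Pcdha*, 22 *Pcdhb* and 21 *Pcdhg* genes. The 31 genes outside these clusters are called single genes, although some of them are neighbours. Peaks numbered 58 at 4 type I classical cadherin genes, 62 at 12 type II classical cadherin genes, 43 at 5 other cadherin genes, 62 at 10 non-clustered protocadherin genes and 19 at the clustered protocadherins. All 31 single genes had a peak, and 36 of the 57 clustered genes did.

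In ATAC-seq, the transposase Tn5 cuts DNA where chromatin is open and adds sequencing adapters there, so the read density at a peak measures its accessibility. Each of the 4 libraries was made from 50000 cells of the left and right distal forelimb buds of 1 embryo at E11.5, on a mixed C57Bl/6 x 129 background, with 2 wild type and 2 *Hox13-/-* libraries. The *Hox13-/-* embryos carried null alleles of both *Hoxa13* (*Hoxa13Str*) and *Hoxd13* (*Hoxd13lacZ*), which encode the HOX13 transcription factors needed for digit formation, so the effect of either gene alone cannot be told apart. The other 2 samples of the series, proximal buds labelled Control RosaHoxa11/Hoxa11, were not analysed here. The null alleles act in every tissue and the buds were not sorted, so a lower value cannot be told apart as fewer cells with open chromatin or less opening per cell.

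Classical cadherins bind like molecules on neighbouring cells and are tied to actin through the catenins; the type I members hold cells most tightly, and N-cadherin, encoded by *Cdh2*, is known for its part in the condensation of limb mesenchyme before cartilage forms. Type II members are expressed in more restricted tissues, such as cadherin 11 in loose mesenchyme. Protocadherins bind more weakly and do not use the catenin link, and the clustered genes are best known from neurons. The *Pcdha* and *Pcdhg* genes join 1 of many variable first exons to last exons that the cluster shares, with each variable exon having its own promoter, whereas each *Pcdhb* gene stands alone without shared exons.

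Accessibility is given as rLog, a log2 value per peak and library that DESeq2 corrects for sequencing depth and pulls towards the average of the peak. The deposited table does not name its transformation, and the values were taken as rLog from a figure legend of the study and from their distribution. Read counts cannot be recovered from it, so how many reads lie behind a value is unknown. A difference is *Hox13-/-* minus wild type, was tested at all 61954 peaks with limma, and was called when the adjusted p was under 0.05. With 2 libraries against 2, the smallest two-sided p of an exact permutation test is 0.333, and limma reaches smaller values by borrowing the spread of all peaks. The peak at the start of *Hoxa13* had rLog values of 5.71 and 5.95 for wild type against 5.66 and 5.84 for *Hox13-/-*, and the groups overlapped. That of *Hoxd13* had 4.06 and 4.17 for wild type against 3.70 and 3.50 for *Hox13-/-*, a difference of -0.52 (limma, adjusted p = 6.08e-04). Null alleles need not change the opening of their own promoter, so these values are no check of the labels.

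Markers of the tissue were read from the peaks at gene starts. Of 9 limb mesenchyme genes, 7 had such a peak, namely *Prrx1*, *Prrx2*, *Msx1*, *Msx2*, *Lhx9*, *Hand2* and *Twist1*, whereas *Tbx5* and *Lhx2* had none within 1 kb of the annotated gene start. Their summed rLog values were 44.0 in each wild type library and 44.3 in each *Hox13-/-* library. The highest rLog, without allowance for peak length, was that of *Prrx1*. Only *Twist1* was called among them, at -0.40 (adjusted p = 0.0143). Start peaks were found at 2 of 8 ectoderm genes (*Cdh1* and *Epcam*), 2 of 7 endothelial genes (*Kdr* and *Tek*), 2 of 5 muscle precursor genes (*Myod1* and *Met*), 2 of 4 neural crest and glial genes (*Erbb3* and *Ngfr*) and 2 of 4 neuronal genes (*Tubb3* and *Elavl4*), and none of them was called. The ectoderm sum was 6.55 and 6.16 for wild type against 6.23 and 6.21 for *Hox13-/-*. The start peak of *Cdh1*, the epithelial cadherin, differed by 0.01. That of *Epcam* differed by -0.15, with both mutant libraries below both wild type libraries, and was not called (limma, adjusted p = 0.352). No blood gene had a start peak, with *Gata1* not being on an autosome.

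Sequences are shown for the 2 called peaks of smallest p in each direction, because these carry the clearest differences. They are up to 300 bases around the midpoint, on the plus strand of mm10, and none overlaps an annotated exon of these genes. Intergenic here means outside the genes of these families, and the bodies of other genes were not checked. Capitals mark a match to CAATAAA or TCGTAAA, which are 2 forms of the posterior HOX site, on either strand.
Pcdh10, lower in Hox13-/-, intergenic, upstream of the gene, chr3:45355982-45356248: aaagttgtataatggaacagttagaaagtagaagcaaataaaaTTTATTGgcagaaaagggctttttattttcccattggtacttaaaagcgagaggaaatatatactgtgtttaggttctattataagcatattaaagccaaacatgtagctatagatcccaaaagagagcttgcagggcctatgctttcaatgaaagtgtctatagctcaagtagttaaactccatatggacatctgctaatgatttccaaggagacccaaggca
Cdh3, lower in Hox13-/-, start site, just upstream of the first exon, chr8:106510587-106510886: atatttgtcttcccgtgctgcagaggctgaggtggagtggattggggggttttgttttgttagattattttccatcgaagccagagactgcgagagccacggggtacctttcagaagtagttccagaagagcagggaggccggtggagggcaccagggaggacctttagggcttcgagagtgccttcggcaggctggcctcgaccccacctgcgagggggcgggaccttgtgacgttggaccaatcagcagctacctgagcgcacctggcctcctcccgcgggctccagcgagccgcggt
Cdh22, higher in Hox13-/-, intron, chr2:165152941-165153240: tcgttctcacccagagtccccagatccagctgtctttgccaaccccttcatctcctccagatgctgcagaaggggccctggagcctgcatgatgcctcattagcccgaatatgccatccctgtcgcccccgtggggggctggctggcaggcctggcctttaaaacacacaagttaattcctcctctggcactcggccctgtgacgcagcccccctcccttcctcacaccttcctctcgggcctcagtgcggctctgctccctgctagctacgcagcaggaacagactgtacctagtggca
Cdh23, higher in Hox13-/-, intron, chr10:60592885-60593184: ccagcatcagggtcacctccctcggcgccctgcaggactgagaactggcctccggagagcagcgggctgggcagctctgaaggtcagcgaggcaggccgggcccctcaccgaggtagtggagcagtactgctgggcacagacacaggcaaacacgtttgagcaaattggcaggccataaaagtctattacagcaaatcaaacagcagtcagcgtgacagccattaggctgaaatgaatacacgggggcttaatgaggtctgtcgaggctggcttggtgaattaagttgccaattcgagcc
The *Pcdh10* peak held 1 match, read as TTTATTG on the plus strand, and the other 3 sequences held none.

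In *Hox13-/-* buds, 13 of the 244 peaks had lower accessibility, 33 had higher accessibility and 198 were not called. These are 5.33% lower and 13.5% higher, beside 8.31% lower and 11.4% higher over all peaks tested. At an unadjusted p under 0.05 the numbers were 24 lower (9.84%) and 56 higher (23.0%), beside 14.9% and 16.9% of all peaks. The median difference was 0.03 at these peaks and -0.01 over all peaks, and single differences ran from -0.62 to 0.76. No peak of these genes passed a 2-fold threshold as well, which 0.224% of all peaks passed downwards and 0.313% upwards. With each library centred on its own median, the split of calls moved to 16 lower and 24 higher at these peaks and to 6811 lower and 6017 higher over all peaks, from 5146 and 7040. The libraries of the genotypes did not overlap at 58 peaks with lower and 81 peaks with higher *Hox13-/-* values, while over all peaks the shares without overlap were 29.6% lower and 29.7% higher. Of the 46 called peaks, 44 had groups that did not overlap, and the other 2 lay in introns of *Cdh13*. Over the whole table this held for 5062 of 5146 lower and 7014 of 7040 higher calls. Groups without overlap at a called peak, here and below, thus follow closely from the call and are no separate support.

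Removing 1 library changed these counts, and over all peaks the calls in both directions also became fewer in every such fit. The number of lower peaks was 8 without wild type replicate 2, 8 without *Hox13-/-* replicate 1, 7 without *Hox13-/-* replicate 2 and 11 without wild type replicate 1. The number of higher peaks was 21 without *Hox13-/-* replicate 1 and 22 to 28 without any other library. All 46 called peaks kept their sign in every such fit, and 17 of them were called in all 4, of which 4 were lower and 13 higher.

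**Figure D1:**
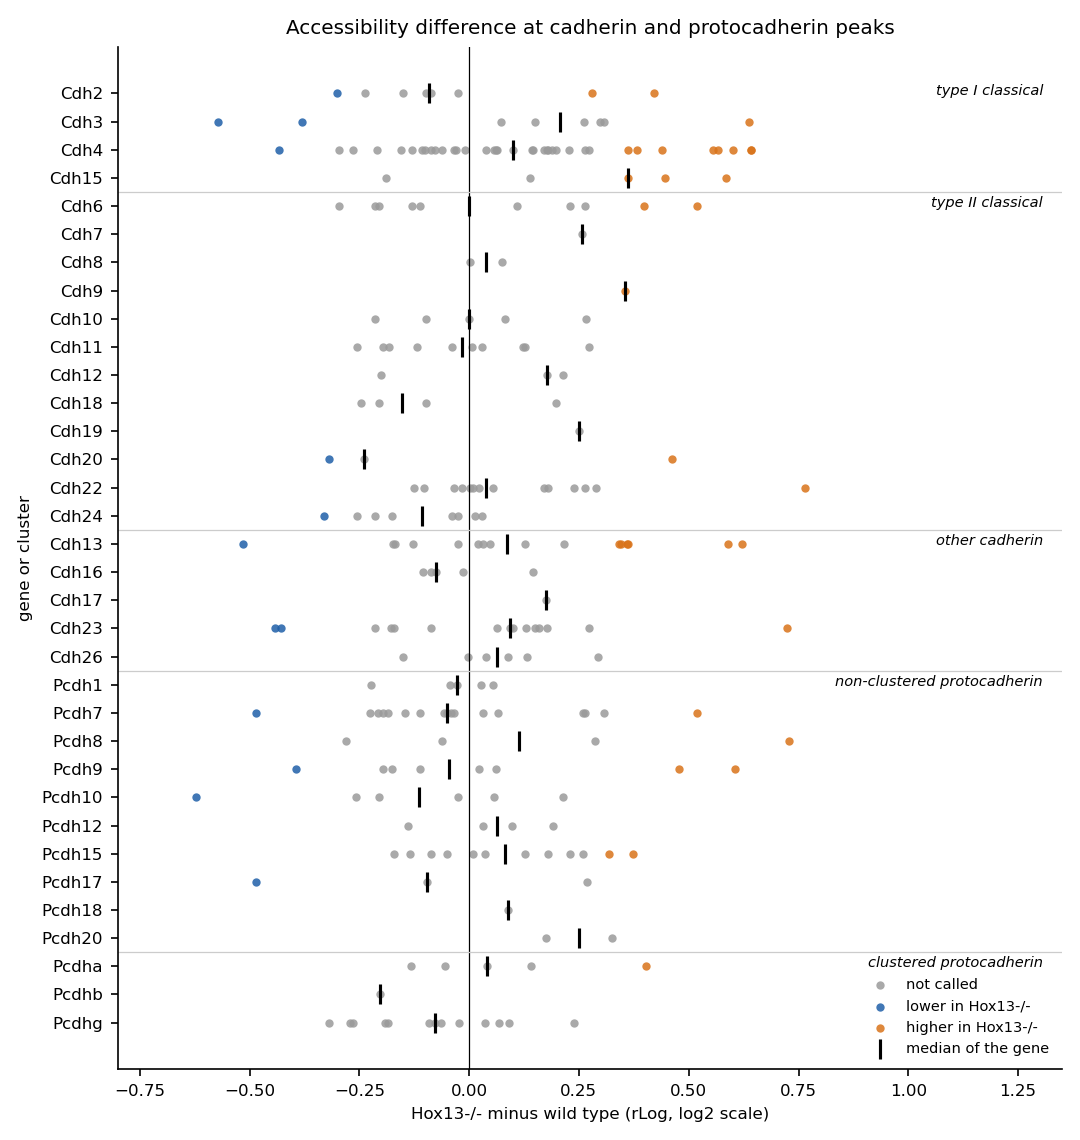
Difference at each of the 244 peaks by gene or cluster, Hox13-/- minus wild type in rLog (log2 scale, 2 libraries per genotype), with each point a peak coloured by its limma call and each black tick the median of the gene. The points run from -0.62 to 0.76, and Cdh4 and Cdh13 hold the most peaks called higher, at 8 and 6.

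Called peaks lay at 17 of the 31 single genes. A higher peak was found at 14 of these genes and a lower peak at 11. These are 54.8%, 45.2% and 35.5% of the genes, beside 47.9%, 22.3% and 34.1% of the 17967 autosomal protein-coding genes that have a peak by the same rule. Such shares depend on how many peaks a gene has and where they lie, and the differences were not tested. The lower calls kept in every fit with 1 library removed lay only at *Cdh3*, *Cdh13*, *Pcdh7* and *Pcdh10*. Both directions occurred in 8 genes, or 25.8% beside 8.52% of all genes with a peak, which were *Cdh2*, *Cdh3*, *Cdh4*, *Cdh13*, *Cdh20*, *Cdh23*, *Pcdh7* and *Pcdh9*. This number was 4 without *Hox13-/-* replicate 2, 5 without wild type replicate 2, and 3 with either filter on low values, and only *Cdh3*, *Cdh13* and *Pcdh7* kept a call in each direction in every fit with 1 library removed. No peak was called at *Cdh7*, *Cdh8*, *Cdh10*, *Cdh11*, *Cdh12*, *Cdh16*, *Cdh17*, *Cdh18*, *Cdh19*, *Cdh26*, *Pcdh1*, *Pcdh12*, *Pcdh18* or *Pcdh20*. Of these, *Pcdh20* was near the threshold, since its start peak had a difference of 0.33 without overlap of the groups (adjusted p = 0.0541) and was called with loess scaling, without the variance trend and with either filter on low values. The GC correction gave 1 lower peak each at *Cdh11* and *Cdh18*, and 1 peak was higher at *Cdh7* without *Hox13-/-* replicate 1 and at *Cdh26* without *Hox13-/-* replicate 2.

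Over the whole table the direction of the calls varied with position. In these families the calls near starts were few, and not all of them held with 1 library removed. The difference between the places was not tested. The starts used here are a wider set than the gene 5' ends that define start peaks, with 19542 against 15486 of all peaks within 1 kb. Away from the starts of all protein-coding genes, 8 of 171 peaks of these families were lower and 31 were higher. That is 4.68% and 18.1% beside 8.2% and 15.9% for all peaks so placed. Within 1 kb of a start, 5 of 73 were lower and 2 were higher, which is 6.85% and 2.74% beside 8.54% and 1.61% for all such peaks. The lower share of these families was under that of all peaks away from starts, and this difference was not tested. Near starts it rests on 5 lower calls and was close to the share of all such peaks, so nothing is read from it. By place within the families, 23 of 124 intronic peaks were higher (18.5%) and 7 were lower (5.65%), beside the 15.9% and 8.2% of all peaks away from starts. Of 11 exonic peaks 0 were called (limma; 0 also at an unadjusted p under 0.05), and from 11 peaks nothing is read. Shares over all intronic or all exonic peaks were not taken.

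The type I classical cadherins had the most higher peaks among the 5 classes, 14 of 58 or 24.1%, beside 11.4% of all peaks, and a median difference of 0.12. Lower peaks numbered 4, or 6.90%, beside 8.31% of all peaks. Away from all starts 14 of 50 were higher, or 28.0%, beside 15.9% of all peaks so placed, and the differences between these shares were not tested. The class had 8 higher peaks without *Hox13-/-* replicate 1, 10 to 12 without any other library, and 11 with median centring or with the GC correction, and these counts need not hold the same peaks. The 6 higher calls kept in every fit with 1 library removed were 5 at *Cdh4* and 1 at *Cdh3*.

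*Cdh4* encodes R-cadherin and spans 456.9 kb of chromosome 2 from 179442431 to 179899373. It held 37 peaks, of which 8 were higher and 1 was lower, and its median difference was 0.10. In the intron peak 46.4 kb into the gene, at chr2:179488523-179489152, the rLog values were 5.71 and 5.46 for wild type against 6.21 and 6.24 for *Hox13-/-*. Both mutant libraries were above both wild type libraries, by 0.64 ± 0.13 (SE; limma, adjusted p = 1.92e-05). The intron peak 123.4 kb into the gene, at chr2:179565627-179566005, had 4.96 and 4.83 for wild type against 5.49 and 5.58 for *Hox13-/-*. It differed by the same 0.64 ± 0.13 (SE; adjusted p = 2.46e-05), again without overlap. Among the other 6 higher peaks, the differences ran from 0.36 to 0.60, and 3 of them stayed called in every fit with 1 library removed.

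The lower peak of *Cdh4* lay 3.31 kb further in than its neighbour at 123.4 kb, at chr2:179569019-179569231. Its values were 4.10 and 3.60 for wild type against 3.44 and 3.39 for *Hox13-/-*. Wild type replicate 1 stood well above the other 3 libraries. The difference of -0.43 (adjusted p = 0.00428) became -0.18 (adjusted p = 0.466) without wild type replicate 1, and -0.41 (adjusted p = 0.0501) without *Hox13-/-* replicate 2. At the start of *Cdh4* the values were 7.65 and 7.75 for wild type against 7.46 and 7.35 for *Hox13-/-*. That difference of -0.30 was not called (adjusted p = 0.0753), while both mutant libraries were below both wild type libraries.

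*Cdh3* encodes P-cadherin, a cadherin of epithelia. Its 8 peaks included 2 lower and 1 higher. The start peak, at chr8:106510470-106511003 and shown in part above, had 6.05 and 6.29 for wild type against 5.69 and 5.50 for *Hox13-/-*. Both mutant libraries were lower, with means of 6.17 ± 0.17 and 5.60 ± 0.13 (SD, n = 2 each). The difference was -0.57 ± 0.13 (SE; limma, adjusted p = 1.89e-04) and ran from -0.69 to -0.45 with 1 library removed.

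In contrast, the intron peak 28.5 kb into *Cdh3*, at chr8:106539073-106539749, had 5.86 and 5.61 for wild type against 6.51 and 6.23 for *Hox13-/-*. The groups did not overlap, and the difference was 0.64 ± 0.13 (SE; adjusted p = 2.06e-05), or 0.50 to 0.78 with 1 library removed. The 5 peaks of *Cdh3* that were not called had differences between 0.07 and 0.31. The ectoderm sum given above moved less between the genotypes than between the wild type libraries. Of its 2 genes, *Epcam* differed by -0.15 without overlap of the groups and *Cdh1* by 0.01, and neither was called. The part of ectoderm in the *Cdh3* values was not tested.

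*Cdh2*, encoding N-cadherin, had 8 peaks with a median difference of -0.09, of which 2 were higher and 1 was lower. None of these 3 calls was kept in every fit with 1 library removed. The highest of the 3, an intron peak 119.6 kb into the gene, had 6.15 and 6.23 for wild type against 6.84 and 6.38 for *Hox13-/-*, and this peak was chosen after its values were seen. *Hox13-/-* replicate 1 was the high library, and without it the difference of 0.42 (adjusted p = 0.00883) was 0.19 (adjusted p = 0.469). At the *Cdh2* start the values were 6.57 and 6.68 for wild type against 6.55 and 6.22 for *Hox13-/-*, a difference of -0.24 (adjusted p = 0.184).

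*Cdh15* encodes M-cadherin, the cadherin of muscle cells. It had 5 peaks and none at its start. The 3 called peaks lay 43.8, 42.3 and 23.1 kb upstream of the gene and were higher by 0.45, 0.36 and 0.58. Each was lost without *Hox13-/-* replicate 1, where the nearest of them to the gene was still higher by 0.39 (adjusted p = 0.0952). The muscle precursor markers were not called, and their summed rLog values were 8.71 and 8.79 for wild type against 8.82 and 8.45 for *Hox13-/-*.

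**Figure D2:**
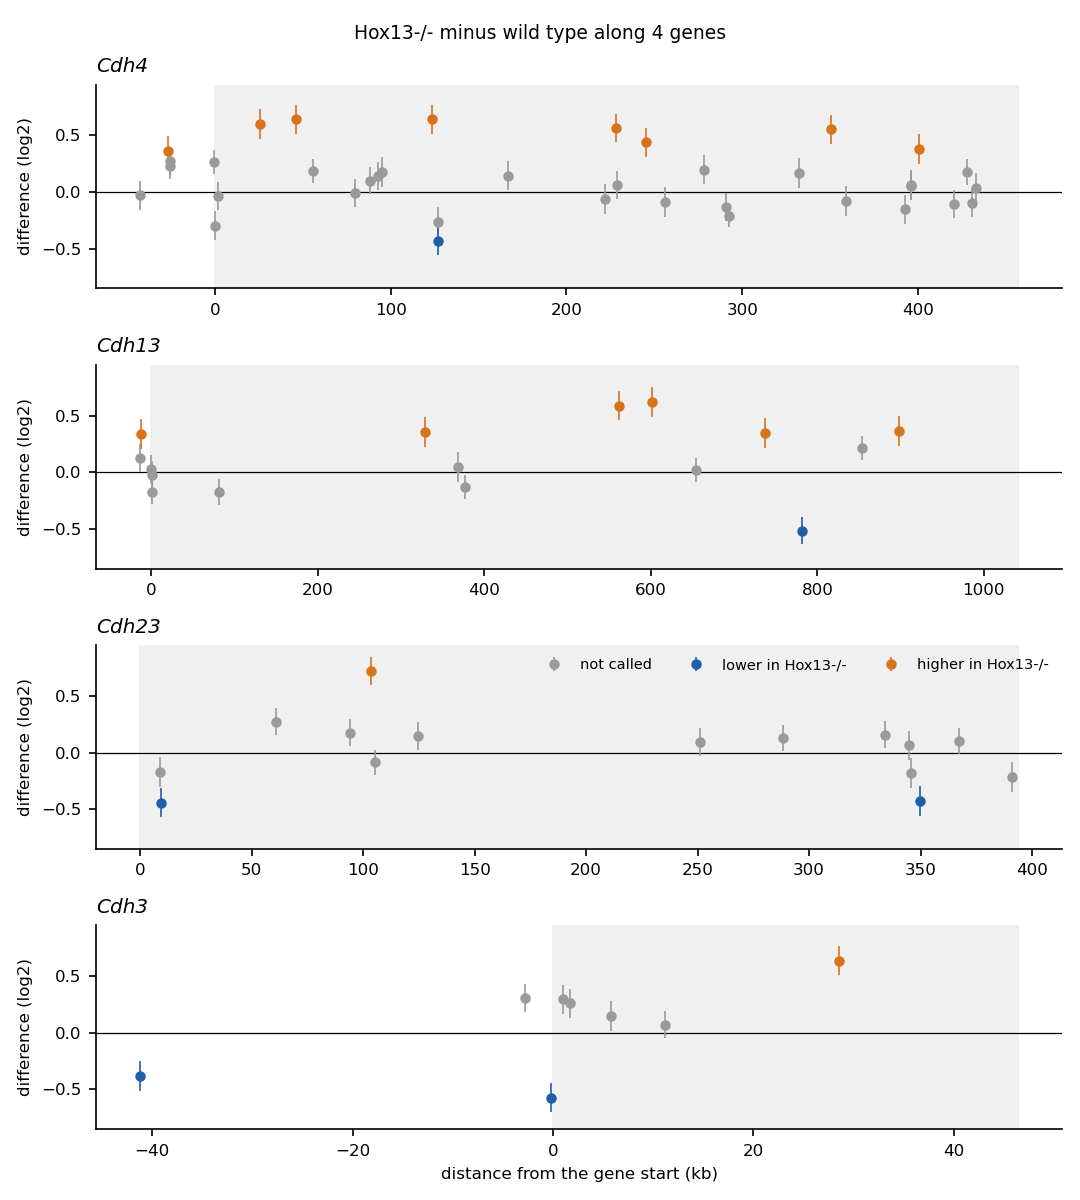
Differences along Cdh4, Cdh13, Cdh23 and Cdh3, with the distance from the gene start in kb on the x axis, Hox13-/- minus wild type in rLog (log2) on the y axis, bars of 1 SE from limma and the gene body in grey. Peaks called in opposite directions lie within the same gene, and in Cdh4 the lower peak is 3.31 kb from one of the higher peaks.

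The 12 type II classical cadherin genes had 62 peaks, of which 2 were lower and 5 were higher, with a median difference of 0.00. These are 3.23% and 8.06%, both under the 8.31% and 11.4% of all peaks. The number higher was 2 without wild type replicate 2 and 3 without wild type replicate 1. The number lower was 0 without either *Hox13-/-* library and 1 without either wild type library.

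*Cdh22* held the largest difference of all 244 peaks. Its intron peak 81.8 kb into the gene, at chr2:165152871-165153310, had 5.23 and 5.04 for wild type against 5.78 and 6.02 for *Hox13-/-*. Both mutant libraries were well above both wild type libraries, with means of 5.90 ± 0.16 and 5.14 ± 0.13 (SD, n = 2 each). The difference was 0.76 ± 0.13 (SE; limma, adjusted p = 2.32e-07), and it was 0.65 to 0.88 with 1 library removed. The other 13 peaks of *Cdh22* were not called, and the lowest was at -0.13.

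*Cdh20* had a higher start peak and a lower intron peak. Its 3 peaks had a median difference of -0.24. The start peak, at chr1:104768112-104768634, had 5.80 and 5.66 for wild type against 6.18 and 6.20 for *Hox13-/-*. The mutant libraries were close together and above both wild type libraries. The difference was 0.46 ± 0.13 (SE; adjusted p = 0.00384), and without wild type replicate 2 it was 0.39 (adjusted p = 0.0746). The lower peak, 210.8 kb into the gene, differed by -0.32 (adjusted p = 0.0332), or -0.47 to -0.17 with 1 library removed, and was called in 1 of these 4 fits, that without wild type replicate 1.

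*Cdh24* had the lower start peak of this class, at chr14:54641107-54641660, which also lay within 1 kb of the start of *Gm17606*. Its values were 7.18 and 7.02 for wild type against 6.84 and 6.69 for *Hox13-/-*. The mutant libraries were below the wild type libraries, but the difference of -0.33 ± 0.13 (SE; adjusted p = 0.0475) was near the threshold. It was lost without wild type replicate 1 (-0.25, adjusted p = 0.284), without *Hox13-/-* replicate 1 (-0.41, adjusted p = 0.0710) and without *Hox13-/-* replicate 2 (-0.25, adjusted p = 0.319). The call was also lost with quantile scaling (adjusted p = 0.0594), loess scaling (adjusted p = 0.108), the replicate number as a block (adjusted p = 0.0520) and the GC correction, which moved the difference to -0.19 (adjusted p = 0.335).

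*Cdh6*, known from the kidney and neural crest, had 10 peaks with 2 higher and none lower. One of the higher peaks also had an edge within 1 kb of the start, with its midpoint 1.2 kb upstream, at chr15:13174636-13175130. It had 5.26 and 5.53 for wild type against 5.97 and 5.86 for *Hox13-/-*, and this peak was chosen after its values were seen. The mutant libraries were above both wild type libraries, by 0.52 ± 0.13 (SE; adjusted p = 9.34e-04), and without wild type replicate 1 by 0.39 (adjusted p = 0.0822). The start peak of *Cdh6*, which was nearer, had a difference of -0.30 and was not called (adjusted p = 0.0799). *Cdh11*, the mesenchymal cadherin, had 10 peaks with differences from -0.26 to 0.27 and no call. At its start the level per kb of peak, which is the rLog minus the log2 of the peak length in kb, was 8.03 in wild type and 7.85 in *Hox13-/-*. That was the highest start level per kb among the classical cadherins, and the difference of -0.18 was not called (adjusted p = 0.325). *Cdh7*, *Cdh8*, *Cdh9*, *Cdh10*, *Cdh12*, *Cdh18* and *Cdh19* had 1 to 5 peaks each, and of these only the 1 peak of *Cdh9* was called, at 0.35. That call was lost without wild type replicate 1 (0.36, adjusted p = 0.117), wild type replicate 2 (0.35, adjusted p = 0.129) or *Hox13-/-* replicate 1 (0.27, adjusted p = 0.249), with median centring (0.32) and with the GC correction (0.25).

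Among the other cadherins, 3 of 43 peaks were lower (6.98%) and 7 were higher (16.3%), with a median difference of 0.06. Over all peaks 8.31% were lower and 11.4% higher, and away from starts 8.2% and 15.9%. All 10 calls lay at *Cdh13* and *Cdh23*. *Cdh13* encodes T-cadherin, which is held to the membrane by a lipid anchor and has no cytoplasmic tail, and it spans 1041 kb of chromosome 8. Of its 16 peaks, 6 were higher and 1 was lower. The number of higher peaks was 2 with any of the 3 other scalings or the GC correction, and 3 or 4 with 1 library removed.

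The higher peaks called in every fit with 1 library removed lay 562.2 and 601.4 kb into *Cdh13*. The first had 6.67 and 6.56 for wild type against 7.29 and 7.12 for *Hox13-/-*, a difference of 0.59 (adjusted p = 7.20e-05). The second had 5.54 and 5.67 for wild type against 6.22 and 6.24 for *Hox13-/-*, a difference of 0.62 (adjusted p = 3.65e-05). Neither peak showed overlap of the genotypes, and both were chosen after their values were seen.

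The lower peak of *Cdh13* lay 781.1 kb into the gene, at chr8:119064717-119064880. It was a weak peak, with 3.59 and 3.54 for wild type against 3.06 and 3.04 for *Hox13-/-*. Replicates were nearly equal within each genotype, and the difference was -0.52 ± 0.12 (SE; limma, adjusted p = 2.21e-04), or -0.54 to -0.49 with 1 library removed.

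*Cdh23* encodes a long cadherin that, in hair cells of the inner ear, forms the tip link with the product of *Pcdh15*. The intron peak 103.5 kb into the gene, at chr10:60592490-60593578, had 6.99 and 7.03 for wild type against 7.85 and 7.62 for *Hox13-/-*. Both mutant libraries were higher, by 0.72 ± 0.13 (SE; adjusted p = 3.70e-07), and by 0.61 to 0.84 with 1 library removed. Of the other 14 peaks of *Cdh23*, 2 were lower, at -0.44 and -0.43. Without *Hox13-/-* replicate 2 they were at -0.26 (adjusted p = 0.305) and -0.41 (adjusted p = 0.0756), and without wild type replicate 2 the latter was at -0.26 (adjusted p = 0.313). With the GC correction neither was called. The latter peak lay within 1 kb of the start of *Vsir*. *Cdh16*, *Cdh17* and *Cdh26*, which are known from epithelia, had 5, 1 and 6 peaks and no call.

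**Figure D3:**
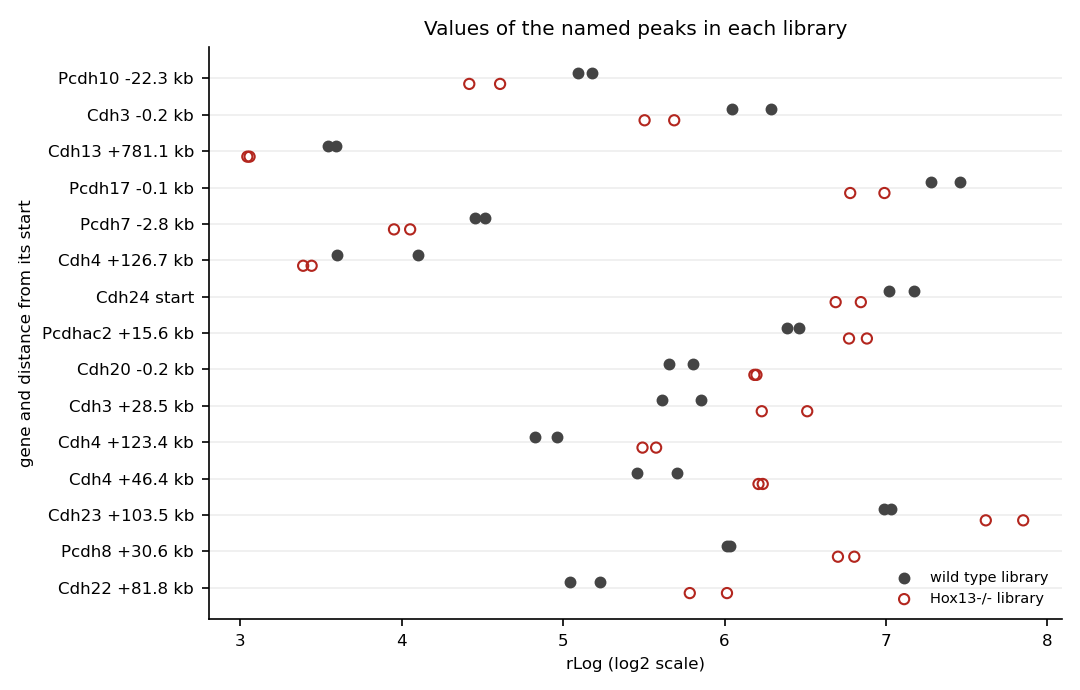
rLog values (log2 scale, x axis) of the 15 peaks selected by rule in each of the 4 libraries, named by gene and distance from the gene start, with filled points for wild type and open points for Hox13-/-. In all 15 the groups do not overlap, which follows closely from choosing called peaks by these same values and is no separate support. The gap is narrowest in the peak of Cdh4 at 126.7 kb, where the wild type libraries are 0.50 apart.

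Of 62 peaks at the non-clustered protocadherins, 4 were lower (6.45%) and 6 were higher (9.68%), beside 8.31% and 11.4% of all peaks, and the median difference was -0.01. *Pcdh10*, a protocadherin studied in the nervous system, held the lowest difference of all 244 peaks, in the peak 22.3 kb upstream of its start that is printed in full above. Its values were 5.18 and 5.10 for wild type against 4.61 and 4.42 for *Hox13-/-*. Both mutant libraries were lower, with means of 5.14 ± 0.06 and 4.51 ± 0.13 (SD, n = 2 each). The difference was -0.62 ± 0.13 (SE; limma, adjusted p = 4.85e-05), and it was -0.72 to -0.53 with 1 library removed.

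*Pcdh17* had a lower start peak, at chr14:84443117-84443716. The values were 7.46 and 7.28 for wild type against 6.78 and 6.99 for *Hox13-/-*. The groups were apart, and the difference was -0.48 ± 0.13 (SE; adjusted p = 0.00152). It was -0.40 (adjusted p = 0.0540) without wild type replicate 1 and -0.38 (adjusted p = 0.0986) without *Hox13-/-* replicate 1.

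*Pcdh7* had 17 peaks, of which 1 was lower and 1 was higher. The lower peak lay 2.8 kb upstream of the start, at chr5:57715023-57715216, with 4.52 and 4.46 for wild type against 3.95 and 4.05 for *Hox13-/-*. Replicates were close together within each genotype and the groups were apart, by -0.48 ± 0.13 (SE; adjusted p = 0.00210). The higher peak lay in the intron 245.1 kb into the gene and differed by 0.52. The start peak of *Pcdh7* itself, a weak one, differed by -0.04, and the other 2 peaks within 1 kb of the start, both stronger, differed by -0.23 and -0.21. None of the 3 was called.

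*Pcdh8*, which encodes a protocadherin of the paraxial mesoderm and brain, had its higher peak 30.6 kb downstream of the start and outside the gene, at chr14:79740398-79741009. It had 6.01 and 6.04 for wild type against 6.70 and 6.80 for *Hox13-/-*. The mutant libraries were clearly above, by 0.73 ± 0.13 (SE; adjusted p = 5.93e-07), and by 0.68 to 0.78 with 1 library removed. The start peak of *Pcdh8* was at -0.28 and was not called (adjusted p = 0.105). *Pcdh9* had 2 higher peaks and 1 lower peak of 8, with differences of 0.60, 0.48 and -0.39, all in introns, and the first of them was called in every fit with 1 library removed. *Pcdh15* had 2 higher peaks of 12, at 0.37 and 0.32, and both calls were lost without any 1 of the 4 libraries, where the differences were still 0.37 to 0.38 and 0.28 to 0.35.

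The clustered protocadherins had 1 call. Their 19 peaks on chromosome 18 had a median difference of -0.06, with 1 higher, 0 lower (limma; 3 lower at an unadjusted p under 0.05) and a range of -0.32 to 0.40. The 5.26% that were higher stand beside 11.4% of all peaks, and none lower beside 8.31%, and from 19 peaks nothing is read from this. With median centring, with quantile scaling or without *Hox13-/-* replicate 2, 1 peak was lower. Of these peaks, 5 lay at the *Pcdha* genes, 1 at the *Pcdhb* genes and 13 at the *Pcdhg* genes, and overlapping genes share most of them.

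Only 4 of the 57 clustered genes had a start peak, *Pcdhac1*, *Pcdhac2*, *Pcdhgc3* and *Pcdhgc4*, which are c-type genes at the ends of the variable arrays. The start peak of *Pcdhgc3* had 7.47 and 7.44 for wild type against 7.23 and 7.31 for *Hox13-/-*. Both mutant libraries were lower, but the difference of -0.19 was not called (adjusted p = 0.306). Its level per kb, 8.11 in wild type, was the highest of the 25 start peaks of the families. The start peaks of *Pcdhac1*, *Pcdhac2* and *Pcdhgc4* differed by 0.14, 0.04 and 0.07. A further peak within 1 kb of the start differed by -0.27 at *Pcdhgc3*, by -0.13 at *Pcdhac2* and by -0.02 at *Pcdhgc4*, and none of these was called.

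The peak called in the clusters lay in the intron 15.6 kb downstream of the *Pcdhac2* start, at chr18:37158884-37159383. It had 6.46 and 6.39 for wild type against 6.88 and 6.77 for *Hox13-/-*. The groups did not overlap, and the difference was 0.40 ± 0.13 (SE; limma, adjusted p = 0.0125). Without wild type replicate 2 it was 0.37 (adjusted p = 0.0852), without *Hox13-/-* replicate 1 it was 0.35 (adjusted p = 0.139), and with the GC correction it was 0.31 (adjusted p = 0.0791). The lowest difference in the clusters, -0.32 (adjusted p = 0.0635), was at a peak 17.5 kb upstream of *Pcdhga1* that also lay at the start of *Taf7*. Without *Hox13-/-* replicate 1 it was -0.16 (adjusted p = 0.551), and without *Hox13-/-* replicate 2 it was -0.48 (adjusted p = 0.0291).

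**Figure D4:**
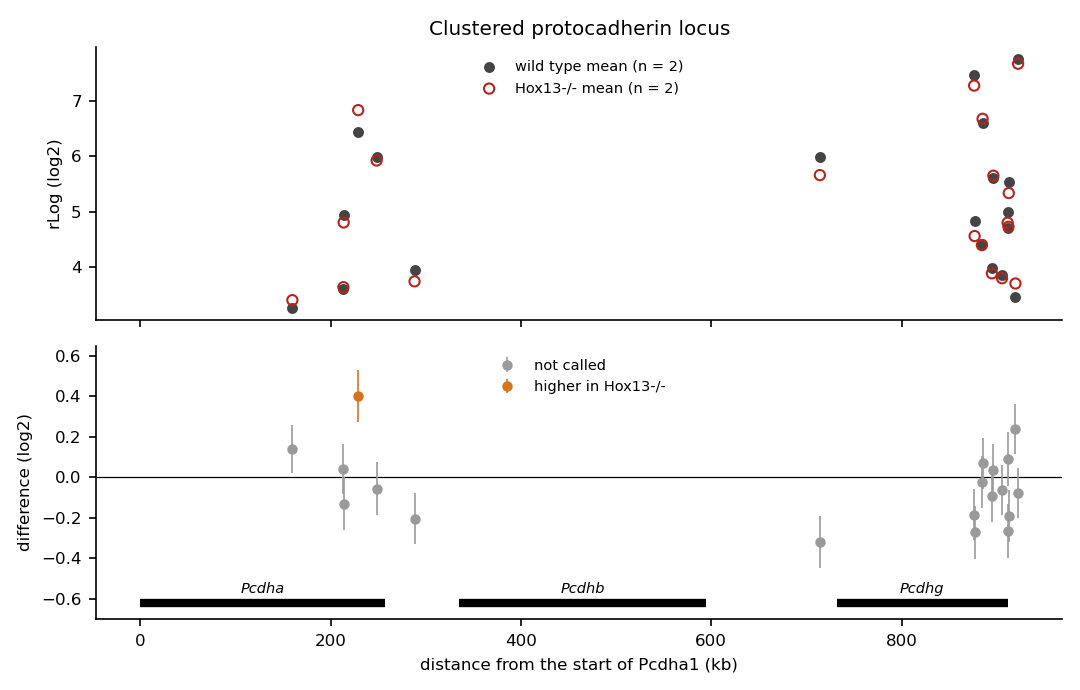
The clustered protocadherin locus, with the distance from the start of Pcdha1 in kb on the x axis. The upper panel gives the mean rLog (log2) of the 2 wild type (filled) and 2 Hox13-/- (open) libraries at each of the 19 peaks, and the lower panel gives the difference with bars of 1 SE, with the 3 clusters as black bars. A single peak, at 0.40, is called.

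Start peaks, 1 for each gene and the nearest to its 5' end, gave levels that can be compared between genes once set per kb of peak. Of the 31 single genes, 21 had a peak within 1 kb of the start, and *Cdh9*, *Cdh12*, *Cdh15*, *Cdh16*, *Cdh17*, *Cdh18*, *Cdh19*, *Cdh23*, *Cdh26* and *Pcdh12* had none. In wild type the highest levels per kb after *Pcdhgc3* were those of *Pcdh17* at 8.11, *Cdh11* at 8.03, *Cdh24* at 7.95 and *Pcdh10* at 7.94. The lowest were those of *Cdh7* at 5.88, *Pcdh15* at 6.32, *Pcdhac1* at 6.41, *Cdh13* at 6.42 and *Pcdh1* at 6.49. These are levels of the start peaks alone, and a further peak within 1 kb of the start had 7.67 at *Pcdh1* and 7.09 at *Pcdh15*. The median gap between neighbours in this order was 0.08, less than the median difference of 0.13 between the 2 wild type libraries at these peaks, and only 5 of the 24 gaps were larger than that. The widest gap, 0.45, set *Cdh7* below *Pcdh15*. Between the genotypes, 3 of the 21 start peaks were lower (*Cdh3*, *Pcdh17* and *Cdh24*) and 1 was higher (*Cdh20*). Over all 50 peaks with an edge within 1 kb of the 5' end of a gene of these families, 3 were lower (6.00%) and 2 were higher (4.00%), the further one being the upstream peak of *Cdh6*, beside 8.84% and 0.723% of all peaks so placed at any protein-coding gene. Lower calls outnumbered higher calls in this position here and in the whole table. The higher share of these families rests on 2 calls, at *Cdh20* and *Cdh6*, and neither held in every fit with 1 library removed. Nothing is therefore read from its standing above the share of all peaks so placed, and the difference was not tested. Without wild type replicate 1 the differences at *Pcdh17* and *Cdh24* were -0.40 and -0.25, and neither was called.

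**Figure D5:**
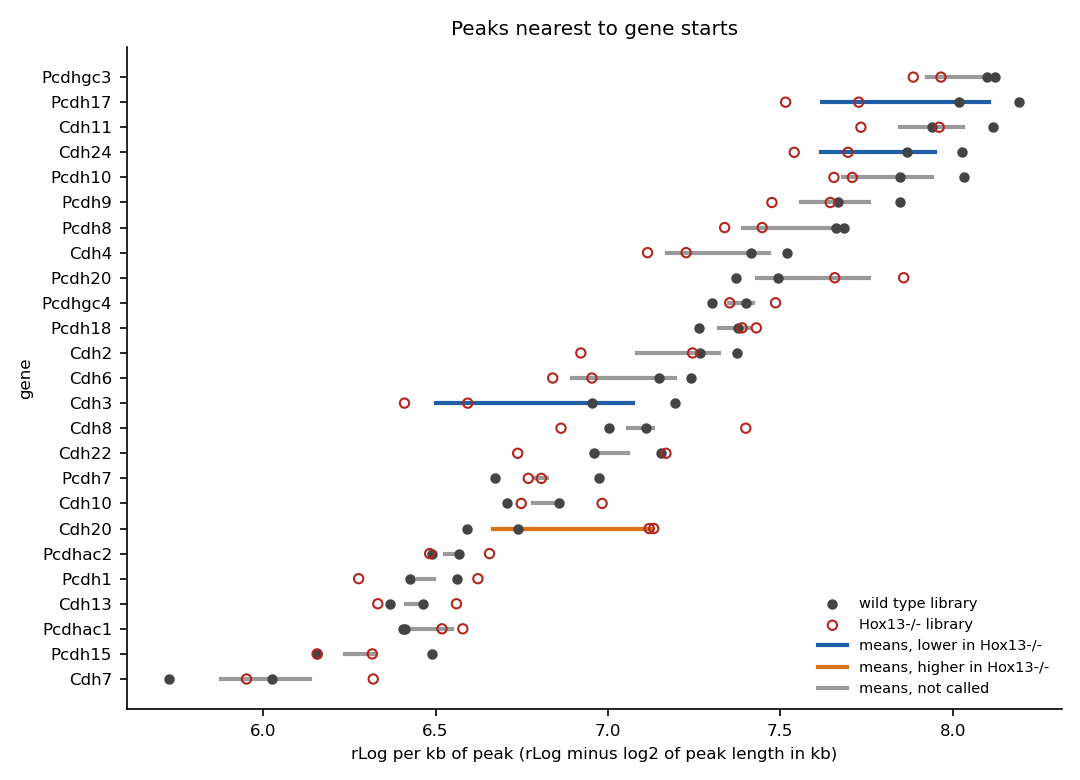
Level at the 25 start peaks of these families, 1 for each gene, as rLog per kb of peak (rLog minus the log2 of the peak length in kb, x axis), ordered by the wild type mean. Filled points are wild type libraries, open points are Hox13-/- libraries, and lines join the means of the genotypes, coloured by the limma call. The lines of Cdh3, Pcdh17 and Cdh24 run to lower and that of Cdh20 to higher Hox13-/- levels.

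Length, GC content and level of the called peaks are given as a description, since the level enters the test through the variance trend. Lower peaks had a median length of 213 bp, a median GC content of 57.7% and a median rLog of 4.35. Higher peaks had 453 bp, 48.8% and 5.66, and the peaks not called had 209 bp, 54.1% and 4.40. Over the whole table, peaks called lower had a median GC content of 48.6% and those called higher 47.8%, beside 53.3% for the peaks not called. The median lengths there were 315 bp, 395.5 bp and 221 bp, and the median rLog values were 5.16, 5.40 and 4.55, in the same order. The lower peaks of these families were above the uncalled peaks in GC content and near them in length and level, unlike lower peaks over the whole table. These are medians of 13 peaks, 5 of them within 1 kb of a start, and the contrast was not tested. Over all peaks the median GC content was 63.3% within 1 kb of a start and 48.9% away from starts. With GC content corrected for, 13 peaks of these families were lower and 23 were higher. Over all 61954 peaks the correction gave 5121 lower and 5372 higher, from 5146 and 7040. Of the 13 lower peaks, 5 had been called by the authors' peak caller in both wild type libraries and in neither *Hox13-/-* library, beside 1250 of 5146 over the whole table. Of the 33 higher peaks, 11 had been called in each mutant library but in no wild type library, beside 3425 of 7040.

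Matches to CAATAAA on either strand, within 200 bases centred on the midpoint, were found in 12 of the 244 peaks, or 4.92%, beside 4.69% of all peaks. They were in 2 of the 13 lower peaks (*Pcdh10* and the intron of *Cdh20*), in 2 of the 33 higher peaks (both at *Pcdh15*) and in 8 of the 198 others. Over the whole table the shares were 9.76% of lower and 5.23% of higher peaks. Matches to TCGTAAA were in 3 of the 244 peaks, or 1.23%, beside 0.860% of all peaks, and of these the peak 228.3 kb into *Cdh4* was called, as higher. A match is a description of the letters and not evidence of binding.

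Other genes of cadherin adhesion were read by the same rule. Of 30 such genes, 26 had a peak, and of their 200 peaks 9 were lower (4.50%) and 24 were higher (12.0%), with a median difference of -0.01. The catenins and linkers, which tie cadherins to actin, had 93 peaks with 3 lower (3.23%) and 15 higher (16.1%), beside 8.31% and 11.4% of all peaks. Among them *Ctnna2*, which encodes an alpha-catenin, had 12 peaks, of which 4 were higher by up to 1.11, and *Ctnnb1*, which encodes beta-catenin, had 2 peaks and no call. The 4 nectin genes, whose products are adhesion proteins of the immunoglobulin family, had 23 peaks with 1 lower and 0 higher (limma; 0 higher also at an unadjusted p under 0.05). Of these peaks, 17 lay within 1 kb of the start of a gene outside the cadherin families, and 1.61% of all peaks near starts were higher, so nothing is read from the 0. The large cadherins, which include the planar polarity genes *Fat4*, *Dchs1* and *Celsr1*, had 82 peaks with 5 lower (6.10%) and 9 higher (11.0%). Both shares were under the 8.31% and 11.4% of all peaks, and the differences were not tested. *Fat3* held 5 of the higher peaks, and *Fat1* held 3 lower peaks and 1 higher peak. Both genes were picked for their counts, so nothing is read from them. The desmosomal cadherins had 2 peaks, both at *Dsc3* and 1 of them also at *Dsc2*, and neither was called (limma; 0 at an unadjusted p under 0.05).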

How the data were processed

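ATAC-seq libraries of distal forelimb buds (2 wild type, 2 *Hox13-/-*) were analysed. Per the labels and the methods, the authors used Bowtie2 2.3.1 for alignment (mm10, paired ends), SAMtools 1.4.1, MACS2 2.1.1.20160309 for peaks in each library, HOMER 4.9.1 to merge and quantify the peaks, and DESeq2. Handling of duplicates, blacklisted regions and the Tn5 offset is not given in the sources used here. The authors deposited values per library on a log2 scale, taken here as rLog although the table does not name the transformation, together with fold changes and p-values of their own comparison, which were not used.

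The genes, gene lists and tests were chosen with earlier results of these data known. The difference was fitted at all 61954 peaks with limma 3.58.1 (R 4.3.3), using genotype as the only term, a variance trend and two-sided Benjamini-Hochberg adjustment. Every peak took the trend's spread. Replicate libraries correlated at r = 0.993 in both genotypes, across peaks, which are not independent. A peak at several genes was counted once, under the nearest start. Peaks with values in the text were called start peaks, the 6 of smallest p in each direction and the largest in each class and direction, and any other peak given with values, including start peaks that were not called, was chosen after its values were seen. Sequences came from the RefSeq GRCm38.p6 genome (mm10, pysam 0.24.0), genes from GENCODE M21. A start peak is the peak nearest to the gene's 5' end among those with an edge within 1 kb of it. Alternatives were 3 other scalings, no variance trend, filters keeping the upper 75% or 50% of peaks, a replicate block, a GC correction, other distances, thresholds and start sites, leaving out peaks at the starts of other genes, and leaving out each library.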

Additional observations from a re-analysis of the deposited data

How the results depend on the processing

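The counts of lower and higher peaks, 13 and 33 in all, 6 and 19 at the classical cadherins and 0 and 1 at the clustered protocadherins, depended on the settings as follows. Filters on low values that kept the upper 75% or 50% of peaks left fewer peaks to test and gave 8 or 6 lower peaks in all and 3 at the classical cadherins under either. Inside gene bodies only, which leaves 162 of the 244 peaks, 7 were lower, and at the classical cadherins 3 were lower and 12 higher. A 2-fold threshold left 0 in both directions in all, at the classical cadherins and at the clustered protocadherins (limma), and an adjusted p under 0.01 left 20 higher in all, 2 lower at the classical cadherins and 0 higher in the clusters. Median centring and quantile scaling each gave 1 lower peak in the clusters, and the GC correction gave 0 higher there. With 1 library removed, the counts were 7 to 11 lower and 21 to 28 higher in all, 2 to 5 lower and 12 to 17 higher at the classical cadherins, and 0 to 1 in either direction in the clusters. Such fits leave 1 library of a genotype, which is assumed to vary like the others. Of the 46 called peaks, 37 stayed called with median centring, 39 with quantile and 38 with loess scaling, 42 without the variance trend and 31 with the GC correction, and none changed sign. The replicate numbers did not pair the libraries (correlation of same-numbered deviations -0.01 across peaks), and with the replicate block 11 peaks were lower and 33 higher, with 44 of the 46 calls kept. Shrinkage of rLog values lowers the differences of weak peaks, and with no counts the depth behind a peak is unknown.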
